A study of Homo sapiens with 16 samples.

Results

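A set of 31 solute carrier (SLC) genes that encode amino acid transporters was followed in RNA of A101D and MeWo, a pair of human melanoma lines, out of 60676 gene identifiers counted. The members were taken as a list of symbols from families SLC1, SLC3, SLC6, SLC7, SLC16, SLC36, SLC38, SLC43 and SLC66. The rule itself uses no measured value, but the list was chosen with earlier results of these data known. Each line had 8 total RNA libraries, numbered 1 to 8. A101D is described as methionine dependent, while MeWo is labelled methionine independent, since homocysteine in its medium can stand in for methionine. Both are established melanoma lines, and each stands for 1 tumour.

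All cultures had the same base medium with 150 µM cystine, 4 mM glutamine and 5% dialyzed serum. A control medium held 200 µM methionine, and a methionine-free medium held 200 µM homocysteine instead. No label or column header gives the medium of a library, so no medium is assigned to any value. Values are given by line and by replicate numbers 1-4 and 5-8. That split is one of numbers only, and it was also chosen with earlier results of these data known. The labels do not say that libraries with different numbers came from separate cultures, so the p-values measure the spread between these libraries, which may be technical. Numbers 1-4 and 5-8 may also differ in anything else that was not recorded in the labels.

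Amino acid transporters work as exchangers, as systems driven by a sodium or proton gradient, or as facilitative carriers. Large neutral amino acids such as methionine and leucine enter mainly through the LAT exchangers, in which a light chain of family SLC7 carries the substrate and the heavy chain SLC3A2 (CD98) brings it to the membrane. Exchangers need a partner substrate, often glutamine, that other carriers bring into the cell. Transporters of the lysosome return amino acids to the cytosol, and some report them to the mTORC1 kinase. When amino acids are short, the GCN2 kinase raises translation of the transcription factor ATF4, which is known to bind composite C/EBP-ATF elements and to induce several transporter genes.

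The libraries held 28910881 to 38961862 counts. Of the 31 members, 28 passed the filter on low counts and were tested, SLC6A14 only through A101D replicates 5-8, where it was high. SLC1A2 passed only through A101D libraries, since no MeWo library reached the 0.298 CPM of the filter. SLC7A3 had 2 counts in all 8 A101D libraries and 1 in MeWo, SLC38A3 had 1 and 5, and SLC38A5 had 67 and 28, and these were not tested. MeWo replicate 2 stood apart, with a count for 34471 genes against 30066 to 31433 in the other MeWo libraries. Both lines carried melanocyte marker RNA, with SOX10 and PMEL among the 7 markers, and their summed level was 2245 to 2818 CPM (counts per 1e6 of the scaled library) in A101D replicates 1-4, 1964 to 2135 CPM in 5-8 and 9892 to 11530 CPM in MeWo. The pigment enzyme genes TYR and TYRP1 were nearly absent from A101D, where their mean levels did not exceed 1.62 CPM. DCT, also a pigment enzyme gene, made up most of the A101D sum, at 1448 to 1920 CPM in replicates 1-4 and 1225 to 1365 CPM in 5-8. In MeWo it was at 413 to 551 CPM, and it alone of the 7 markers was lower there than in A101D. Epithelial, leukocyte and endothelial markers summed to at most 4.18, 3.49 and 19.4 CPM in any library. The endothelial sum was 3.81 to 4.86 CPM in A101D replicates 1-4 and 14.9 to 19.4 CPM in 5-8, mostly VWF, whereas the fibroblast markers (COL1A1, COL1A2, PDGFRB and DCN) summed to 936 to 1059 CPM in A101D replicates 1-4, 572 to 637 CPM in 5-8 and 6.23 to 7.65 CPM in MeWo. Nearly all of that sum in A101D was COL1A2, a collagen chain, with means of 979 and 587 CPM in 1-4 and 5-8 against 0.489 and 0.331 CPM in the MeWo sets, while COL1A1 and DCN had means under 1 CPM in both A101D sets. COL1A2 thus moved with the number split in A101D (log2 change -0.74, adjusted p = 4.65e-22) and with the line. The part of the endothelial and fibroblast markers in the transporter values was not tested.

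The promoter windows were searched for the core of the C/EBP-ATF composite element, TGATGNAA, on both strands. RefSeq (GRCh38.p14) gave windows of 300 bases for 25 members, and none for SLC1A2, SLC7A2, SLC7A3, SLC6A6, SLC6A15 and SLC38A3. The motif was in a window of 6 of the 25 members (24.0%), and in 4.46% of all 27305 genes with a window. A gene counted when any of its windows held the motif, and members had 1.84 windows each against 1.29 for all genes. The sequences below are 30 bases of the gene's strand around each match, shown because 5 of these 6 genes were among the members higher in A101D replicates 5-8. Capitals mark the motif, or its reverse complement in SLC1A4 and SLC3A2.
SLC1A3: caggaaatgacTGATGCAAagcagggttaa
SLC1A4: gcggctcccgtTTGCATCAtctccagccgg
SLC1A5: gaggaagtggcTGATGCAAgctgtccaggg
SLC3A2: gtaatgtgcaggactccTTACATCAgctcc
SLC7A1: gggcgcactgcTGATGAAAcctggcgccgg
SLC38A1: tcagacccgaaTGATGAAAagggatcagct

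These stretches lie at chr5:36596357-36596386 (plus strand) for SLC1A3, chr2:64989381-64989410 (plus) for SLC1A4, chr19:46784893-46784922 (minus) for SLC1A5, chr11:62881719-62881748 (plus) for SLC3A2, chr13:29595663-29595692 (minus) for SLC7A1 and chr12:46266502-46266531 (minus) for SLC38A1. The match began 220 bases before a listed transcript start in SLC1A3 and 97 bases before one in SLC1A5. It began 7 bases before one in SLC1A4 and 4 bases before one in SLC38A1. It began 8 bases into a listed transcript in SLC7A1 and 38 bases into one in SLC3A2. The listed starts are not all the gene start used for counting. The SLC1A3 stretch lies before its counted gene (start 36606355), and the SLC3A2 stretch lies inside its own (start 62856102). Those of SLC1A4, SLC1A5 and SLC38A1 also lie inside the counted gene. A match is only a run of letters in the window. Of the 12 members higher in A101D replicates 5-8, 10 had a window and 5 of those had the motif, and of the 15 lower members, 13 had a window and 1 had it. The E-box CACGTG, searched in the same way, was in windows of 8 of 25 members (32.0%) and of 8.77% of all genes. It was in 3 of the 10 higher members with a window and in 4 of the 13 lower ones. A part of either motif in the changes was not tested.

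A few transporters held most of the RNA of the set. On the scale of CPM per kb of exon, which allows a comparison between genes, SLC7A5, the LAT1 light chain, was highest in all 4 groups when all exons gave the length, with means of 128 and 247 CPM per kb in A101D replicates 1-4 and 5-8 and of 363 and 346 CPM per kb in the MeWo sets. SLC3A2, SLC1A4, SLC1A5, SLC38A2 and SLC7A1 came next in A101D, and the 5 highest members of a library held 72.9% to 81.9% of the summed level. At the other end, 8 members in A101D and 12 in MeWo had means under 1 CPM per kb. The summed level per library was 467 to 488 CPM per kb in A101D replicates 1-4 and 712 to 784 CPM per kb in 5-8, with no overlap. In MeWo it was 863 to 900 and 830 to 888 CPM per kb, and these ranges overlapped. With the length of the longest transcript in place of all exons, SLC3A2 was at 119 CPM per kb in A101D replicates 1-4 instead of 51.1, and at 374 in MeWo replicates 1-4 instead of 160, against 134 and 380 for SLC7A5. In A101D replicates 5-8 SLC3A2 was then at 252 and SLC7A5 at 258 CPM per kb, and in MeWo replicates 5-8 SLC3A2 was at 369 and SLC7A5 at 362, so SLC7A5 was no longer the highest there. The order of these genes therefore depends on the transcript length used. SLC7A5 also has near-identical pseudogene copies, so its counts are uncertain.

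**Figure D1:**
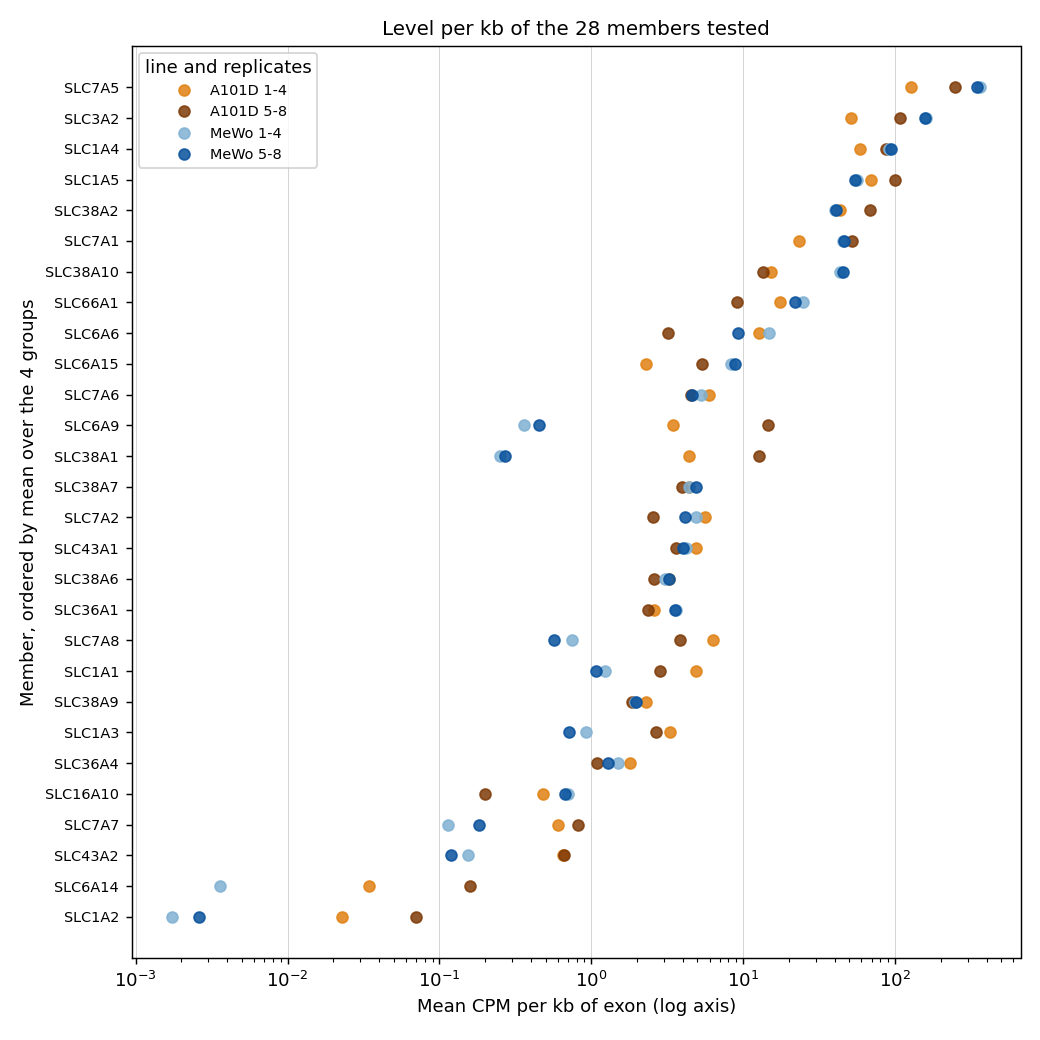
Mean level of each of the 28 tested members in CPM per kb of exon (log axis), 1 point for each line and set of replicate numbers (4 libraries each). On this length of all exons SLC7A5 is highest in all 4 groups, at 128 to 363 CPM per kb, and SLC6A14 has no point for MeWo 5-8, where no count was found.

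Replicates 5-8 of A101D differed from replicates 1-4 at nearly all tested members. The limma test called 27 of the 28, 12 higher and 15 lower in 5-8, at an adjusted p under 0.05. Since SLC6A14 passed the filter only where it is high, it had to differ, and a stricter filter that leaves it out gave 26 of 27, 11 higher and 15 lower. In this comparison 65.3% of all 21569 genes tested were called (29.6% higher and 35.8% lower), so a call alone says little about a member. Over 2-fold changes were fewer, with 7 members higher (SLC6A9, SLC6A14, SLC1A2, SLC38A1, SLC6A15, SLC7A1 and SLC3A2) and 3 lower (SLC6A6, SLC16A10 and SLC7A2), against 9.21% and 7.47% of all genes. The 4 libraries of each set did not overlap for 27 members, against 59.9% of all genes. The median log2 change was -0.15 over the members and -0.05 over all genes, and only SLC43A2 was not past the threshold.

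In MeWo the same split of numbers gave smaller differences. Of the 28 members 9 were called, 2 higher (SLC7A7 and SLC38A7) and 7 lower, none over 2-fold, where 13.1% of all genes were called (4.59% higher and 8.51% lower) and 0.236% were higher and 0.408% lower by over 2-fold. The number fell to 4 without the filter on low counts and to 5 without MeWo replicate 2. The libraries of the sets did not overlap for 8 members, 7 of those called and SLC6A9, against 14.3% of all genes. The change itself differed between the lines for 23 members by the interaction test (22 of 27 under the stricter filter without SLC6A14), against 48.5% of all genes, with 13 more positive in MeWo (27.6% of all genes) and 10 more negative (20.8%). Of these, 2 differed by over 2-fold in the positive direction (6.41% of all genes) and 7 in the negative one (6.91%). All 6 comparisons use the same 4 groups of libraries, so their values are not independent of each other.

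The scaling of the libraries moves the centre of these comparisons. The median log2 change of all genes in A101D was -0.05 with TMM factors, 0.02 with median-of-ratios factors and 0.11 with total counts, and the higher genes made up 45.2%, 52.1% and 59.5% of all calls. In MeWo that share was 35.0% with TMM factors and 66.3% with total counts, and 6 members were then higher and 5 lower. In A101D the split of the members was 12 higher and 12 lower under both other scalings. Small changes of the members are therefore relative to the scaling.

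**Figure D2:**
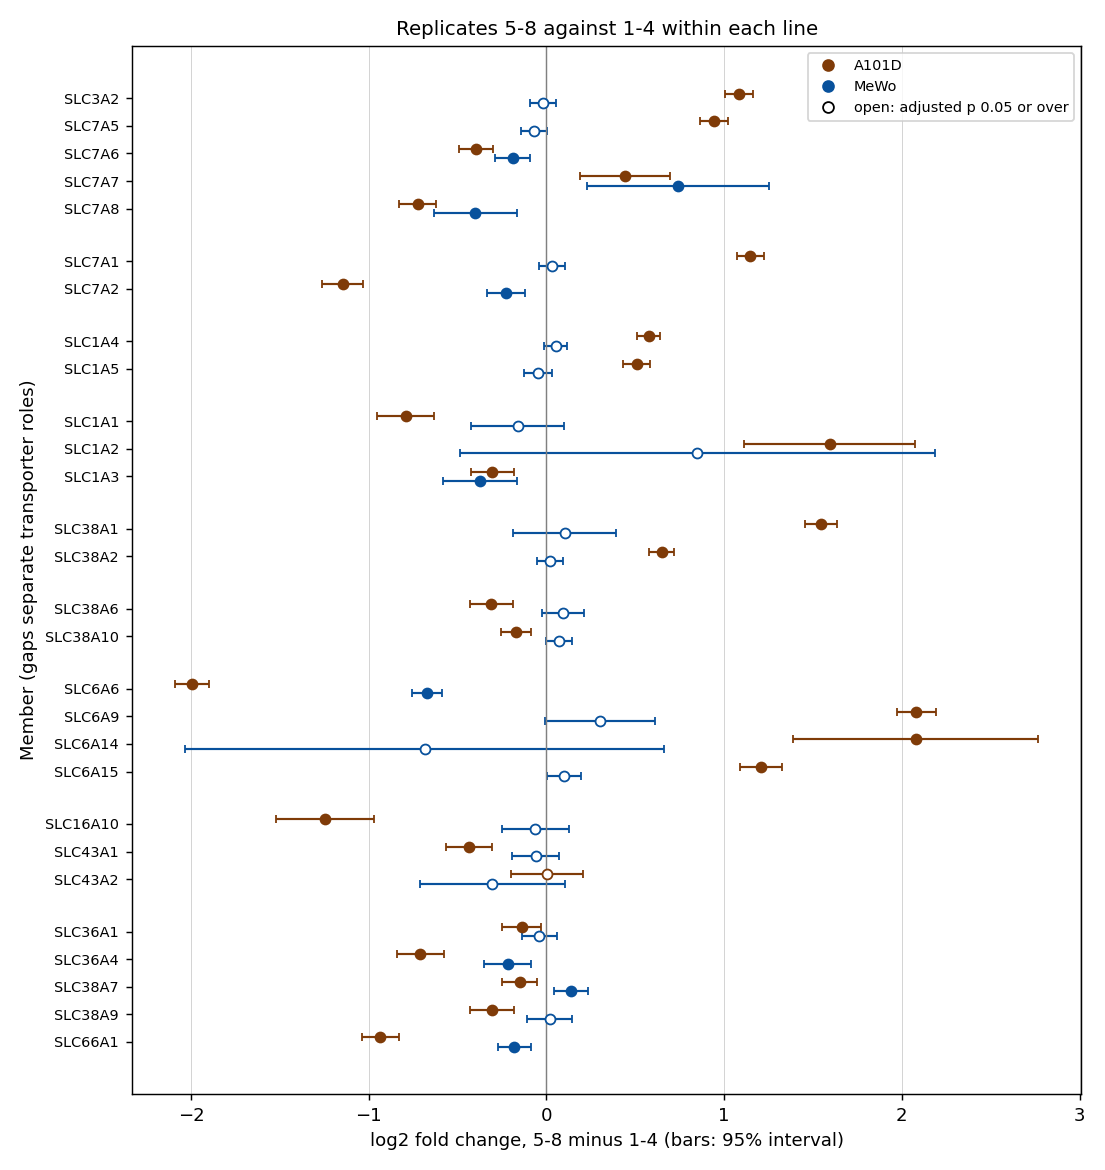
Log2 fold change of replicates 5-8 against 1-4 for the 28 tested members in A101D and in MeWo, with 95% intervals (points filled when the adjusted p is under 0.05). The A101D points spread from -1.99 to 2.08, while the MeWo points past the threshold lie between -0.67 and 0.74.

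The LAT exchanger was higher in A101D replicates 5-8 by both of its chains. SLC3A2, the heavy chain (chromosome 11, 62856102 to 62888875, GRCh38), was at 267, 256, 272 and 262 CPM in A101D replicates 1-4 and at 594, 582, 558 and 508 CPM in 5-8. The MeWo libraries had it at 834, 848, 822 and 819 CPM and then at 852, 793, 842 and 791 CPM. All A101D libraries lay below all MeWo libraries, and only the A101D sets were apart. The log2 change was 1.08 ± 0.04 (SE, adjusted p = 1.03e-26) in A101D and -0.02, with a 95% interval of -0.09 to 0.05, in MeWo, and the interaction was -1.10 (adjusted p = 1.23e-21).

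SLC7A5, the light chain that carries methionine, leucine and other large neutral amino acids, moved with SLC3A2. It was at 622, 573, 640 and 597 CPM in A101D replicates 1-4 and at 1234, 1179, 1194 and 1076 CPM in 5-8. Its MeWo levels were 1746, 1759, 1671 and 1713 CPM in 1-4 and 1720, 1552, 1694 and 1596 CPM in 5-8. Again the A101D sets did not overlap and every MeWo library was above every A101D library. On the log2 scale the sets differed by 0.94 (adjusted p = 7.27e-24) in A101D and -0.07 in MeWo, where the interval ran from -0.15 to 0.00, and the interaction was -1.02 (adjusted p = 9.56e-20). The ratio of SLC7A5 to SLC3A2 per kb was 2.44 to 2.57 in A101D replicates 1-4, 2.21 to 2.34 in 5-8 and 2.14 to 2.29 over the 8 MeWo libraries.

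The other light chains did not follow this pair. SLC7A6, which exchanges cationic for neutral amino acids, was lower in 5-8 in both lines, with log2 changes of -0.39 and -0.19. The MeWo call was lost with total counts (-0.13, adjusted p = 0.0534). Its interaction of 0.21 was lost with both other scalings (adjusted p = 0.138 and 0.209) and without A101D replicate 2 (adjusted p = 0.0501). Its exons share 44.4% of their bases with SLC7A6OS on the opposite strand, so its counts are uncertain. SLC7A8, the LAT2 light chain, was at 39.9, 39.3, 36.0 and 36.5 CPM in A101D replicates 1-4 and at 21.3, 22.4, 23.8 and 24.4 CPM in 5-8. In MeWo it was at 4.45, 4.76, 4.10 and 4.50 CPM and at 3.83, 3.13, 3.54 and 3.11 CPM. It was lower in 5-8 in both lines without overlap, with log2 changes of -0.73 in A101D (adjusted p = 1.94e-16) and -0.40 in MeWo (adjusted p = 0.0145). The MeWo call was lost without the low-count filter (adjusted p = 0.0655) and without MeWo replicate 2, 6 or 8 (adjusted p = 0.0517, 0.0579 and 0.0666).

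SLC7A7, the y+LAT1 light chain for cationic amino acids, was low throughout. Its levels were 2.95, 2.73, 3.16 and 3.48 CPM in A101D replicates 1-4 and 4.72, 3.66, 4.44 and 4.02 CPM in 5-8. In MeWo they were 0.410, 0.356, 0.826 and 0.759 CPM in 1-4 and 0.778, 0.858, 0.966 and 1.13 CPM in 5-8, and these sets overlapped. It was higher in 5-8 in A101D by 0.44 (adjusted p = 0.00191) and in MeWo by 0.74 (adjusted p = 0.0455). The MeWo call did not hold without the low-count filter (adjusted p = 0.132) or without MeWo replicate 1, 2, 6, 7 or 8 (adjusted p = 0.189, 0.201, 0.0614, 0.0874 and 0.149). The changes of the lines were not shown to differ (interaction 0.30, 95% interval -0.27 to 0.87, adjusted p = 0.41).

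The cationic amino acid transporters moved in opposite directions in A101D. SLC7A1, the widely expressed carrier of arginine and lysine (CAT1; chromosome 13, 29509410 to 29595688), was at 180, 184, 180 and 173 CPM in A101D replicates 1-4 and at 416, 404, 399 and 371 CPM in 5-8. Its MeWo levels were 357, 363, 334 and 335 CPM and 361, 354, 362 and 345 CPM. A101D replicates 5-8 thus lay above all MeWo libraries, and A101D replicates 1-4 below all of them. The log2 change was 1.15 (adjusted p = 3.73e-28) in A101D and 0.03 in MeWo (95% interval -0.04 to 0.11), with an interaction of -1.11 (adjusted p = 5.4e-22). With total counts the MeWo change of 0.09 was called (adjusted p = 0.0414).

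SLC7A2, a second carrier of cationic amino acids (CAT2; chromosome 8, 17497088 to 17570573), was at 45.3, 47.7, 41.7 and 43.1 CPM in A101D replicates 1-4 and at 20.03, 19.2, 20.2 and 20.9 CPM in 5-8. The MeWo libraries had it at 39.4, 41.1, 39.6 and 33.5 CPM and at 33.5, 32.7, 32.7 and 31.8 CPM. Both lines were lower in 5-8, with log2 changes of -1.15 in A101D (adjusted p = 7.12e-22) and -0.23 in MeWo (adjusted p = 0.00224), and the interaction was 0.92 (adjusted p = 1.19e-13). Its counts were thus lowest in A101D replicates 5-8, where those of SLC7A1 were highest.

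The neutral exchangers of family SLC1 were higher in A101D replicates 5-8 and near level in MeWo. SLC1A5 (ASCT2; chromosome 19, 46774883 to 46788594), which exchanges glutamine for other neutral amino acids, was at 235, 223, 239 and 233 CPM in A101D replicates 1-4 and at 352, 337, 326 and 311 CPM in 5-8. Its MeWo levels were 189, 196, 186 and 183 CPM and 187, 180, 189 and 174 CPM, all below A101D. Its log2 change came to 0.51 (adjusted p = 6.68e-16) in A101D and -0.05 in MeWo (95% interval -0.13 to 0.03), and the interaction was -0.56 (adjusted p = 7.98e-12). An antisense gene shares 23.4% of its exon bases but had 128 counts in all, against 127953 for SLC1A5. SLC1A4 (ASCT1), which exchanges alanine, serine and cysteine, had a mean of 408 ± 5.46 CPM in A101D replicates 1-4 and of 608 ± 5.86 CPM in 5-8 (SD, n = 4), and its MeWo means were 629 ± 21.5 and 652 ± 12.7 CPM. Its log2 change was 0.58 in A101D and 0.05 in MeWo, and the MeWo change was called with total counts alone (0.11, adjusted p = 0.000405).

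The glutamate transporters of the same family differed among themselves. SLC1A1 was lower in A101D replicates 5-8 (log2 change -0.79), and SLC1A3, known from glia, was lower in both lines (-0.30 in A101D and -0.37 in MeWo). The MeWo call of SLC1A3 was lost without the low-count filter (adjusted p = 0.0532) and without MeWo replicate 3 (adjusted p = 0.0584). SLC1A2, the main glutamate carrier of astrocytes, was barely detected. Its levels were 0.621, 0.381, 0.436 and 0.641 CPM in A101D replicates 1-4 and 1.59, 1.60, 1.49 and 1.67 CPM in 5-8. In MeWo 5 counts were found in replicates 1-4 together and 8 in 5-8, and replicates 3 and 4 had none. The A101D sets did not overlap (log2 change 1.59, adjusted p = 1.45e-07), and the MeWo change of 0.85 had an interval of -0.49 to 2.18.

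**Figure D3:**
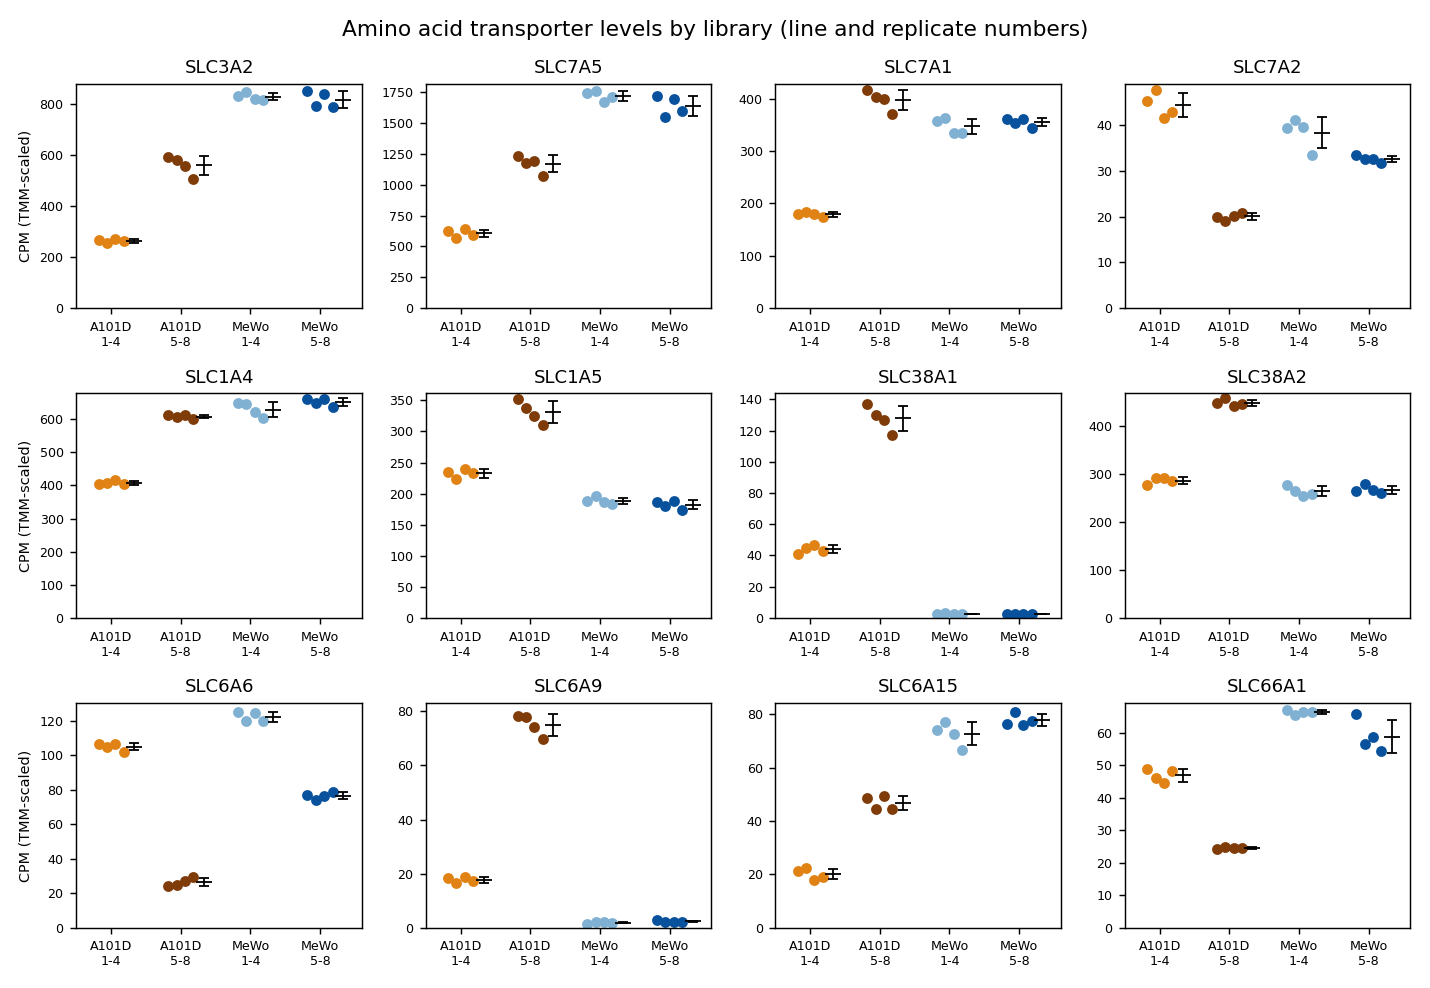
Level of 12 members in each of the 16 libraries, in CPM on TMM-scaled library sizes (axes start at 0), with the mean and SD of each set of 4 libraries as black bars. A101D replicates 5-8 stand apart from 1-4 in every panel, and the MeWo sets stand apart most in SLC6A6, at 120 to 125 against 74.0 to 78.8 CPM.

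Sodium-coupled uptake of neutral amino acids through family SLC38 was represented by a pair of members. SLC38A1 (SNAT1; chromosome 12, 46183063 to 46270017), which takes up glutamine and alanine, was at 41.0, 44.9, 46.9 and 42.6 CPM in A101D replicates 1-4 and at 137, 130, 127 and 117 CPM in 5-8. In MeWo it was at 2.40, 2.91, 2.35 and 2.42 CPM and at 2.72, 2.71, 2.64 and 2.705 CPM. All MeWo libraries were thus far below A101D, and the A101D sets were apart. The log2 change was 1.55 ± 0.05 (SE, adjusted p = 6.02e-30) in A101D and 0.10 in MeWo (95% interval -0.19 to 0.39), and the interaction was -1.44 (adjusted p = 4.67e-11).

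SLC38A2 (SNAT2; chromosome 12, 46358189 to 46372867), the carrier known to be induced by amino acid shortage, lies near it on the same strand. It was at 277, 292, 291 and 286 CPM in A101D replicates 1-4 and at 448, 458, 442 and 447 CPM in 5-8. Its MeWo levels were 278, 265, 255 and 258 CPM and 264, 280, 266 and 261 CPM. A101D replicates 5-8 were above all 12 other libraries. The log2 difference between the sets was 0.65 (adjusted p = 8.26e-21) in A101D and 0.02 in MeWo (95% interval -0.05 to 0.09), and the interaction was -0.63 (adjusted p = 1.22e-14). SLC38A6 and SLC38A10, whose roles are less well known, were lower in A101D replicates 5-8 (log2 changes of -0.31 and -0.17). The SLC38A10 call was lost with median-of-ratios factors (adjusted p = 0.0507) and with total counts (adjusted p = 0.845). In MeWo SLC38A10 had no call (log2 change 0.07, adjusted p = 0.229). It was called higher there with total counts (0.13, adjusted p = 0.00408) and when MeWo was fitted alone (0.10, adjusted p = 0.0449).

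Family SLC6 held both the largest gain and the largest loss among the members with at least 10 CPM. SLC6A9 (GlyT1; chromosome 1, 43991500 to 44031467), the glycine transporter, was at 18.4, 16.6, 18.7 and 17.2 CPM in A101D replicates 1-4 and at 78.3, 78.0, 74.2 and 69.6 CPM in 5-8. In MeWo it was at 1.58, 2.01, 2.03 and 1.87 CPM and at 2.79, 2.08, 2.31 and 2.13 CPM. The log2 change was 2.08 ± 0.05 (SE, adjusted p = 6e-32) in A101D. The MeWo sets did not overlap either, yet their change of 0.30 was not past the threshold (adjusted p = 0.215; 0.0233 with limma-trend). The interaction was -1.78 (adjusted p = 1.34e-12). CCDC24 on the opposite strand shares 7.8% of its exon bases.

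SLC6A6 (TauT; chromosome 3, 14402576 to 14489349) takes up taurine, an amino sulfonic acid formed from cysteine. Its levels were 107, 105, 107 and 102 CPM in A101D replicates 1-4 and 24.3, 25.01, 26.8 and 29.4 CPM in 5-8. In MeWo they were 125, 120, 124 and 120 CPM and 77.2, 74.0, 76.6 and 78.8 CPM. Both lines were lower in 5-8 without overlap. The fitted log2 change was -1.99 ± 0.05 (SE, adjusted p = 2.64e-33) in A101D and -0.67 ± 0.04 (adjusted p = 6.43e-16) in MeWo, and the interaction was 1.32 (adjusted p = 6.71e-22). No other member with at least 10 CPM changed as much in MeWo.

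SLC6A15, a carrier of branched-chain amino acids, methionine and proline known mainly from neurons, lies on chromosome 12 at 84859488 to 84913615. It was at 21.2, 22.4, 18.1 and 19.0 CPM in A101D replicates 1-4 and at 48.6, 44.6, 49.4 and 44.4 CPM in 5-8. Its MeWo levels were 74.3, 77.0, 72.8 and 66.8 CPM and 76.5, 81.0, 76.1 and 77.6 CPM. All MeWo libraries were above A101D. The log2 change was 1.21 (adjusted p = 5.27e-22) in A101D and 0.10 in MeWo (95% interval 0.00 to 0.20, adjusted p = 0.171), and the interaction was -1.11 (adjusted p = 1.69e-16). The MeWo change passed the threshold with total counts (adjusted p = 0.00968) and when MeWo was fitted alone (adjusted p = 0.0182).

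SLC6A14, which takes up neutral and cationic amino acids, rested on few counts. Its levels were 0.162, 0.127, 0.145 and 0.183 CPM in A101D replicates 1-4 and 0.961, 0.619, 0.573 and 0.728 CPM in 5-8, from 20 and 103 counts. In MeWo 2 counts were found, both in replicate 2. The A101D sets did not overlap. Only A101D replicates 5-8 reached the 0.298 CPM that the filter asked of 4 libraries, so a test after that filter depends on the group where the gene is high, and leaving out any of these 4 libraries removed the gene from the test. In the fit with no low-count filter its log2 change in A101D was 2.08 (adjusted p = 0.000101), and the interaction of -2.81 (adjusted p = 0.000633) was computed against MeWo libraries at or near 0.

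The facilitative carriers were mostly lower in A101D replicates 5-8. SLC16A10 (TAT1; chromosome 6, 111087503 to 111231194), which carries aromatic amino acids, was at 5.00, 6.96, 5.01 and 4.49 CPM in A101D replicates 1-4 and at 2.16, 1.93, 2.35 and 2.48 CPM in 5-8. The MeWo libraries had it at 8.49, 8.32, 8.29 and 6.66 CPM and at 7.49, 8.17, 7.44 and 7.16 CPM, with overlap between the sets. On the log2 scale the change was -1.25 (adjusted p = 8.28e-11) in A101D and -0.06 in MeWo (95% interval -0.25 to 0.13), and the interaction was 1.18 (adjusted p = 6.78e-08). SLC43A1 (LAT3) was lower in A101D (log2 change -0.43).

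SLC43A2 (LAT4; chromosome 17, 1569267 to 1628886), a facilitative carrier of methionine and other large neutral amino acids, was the 1 tested member with no call in A101D. It was at 6.97, 6.67, 7.12 and 6.99 CPM in A101D replicates 1-4 and at 7.66, 7.19, 7.64 and 5.63 CPM in 5-8. In MeWo it was at 2.22, 1.30, 1.94 and 1.08 CPM and at 1.07, 1.30, 1.26 and 1.43 CPM. The sets overlapped in both lines. The log2 change was 0.00 in A101D (95% interval -0.20 to 0.21, adjusted p = 0.972) and -0.30 in MeWo (-0.71 to 0.10, adjusted p = 0.374).

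All 5 lysosomal members were lower in A101D replicates 5-8, although SLC36A1 and SLC38A7 changed sign with total counts (0.02 and 0.01) and lost their calls with median-of-ratios factors. The largest change was that of SLC66A1 (PQLC2), which exports cationic amino acids from the lysosome, with means of 46.8 ± 1.92 CPM in replicates 1-4 and 24.5 ± 0.176 CPM in 5-8 (SD, n = 4) and a log2 change of -0.93. SLC36A4, of the same family as SLC36A1, had a log2 change of -0.71. SLC38A9 (chromosome 5, 55625845 to 55773194), which senses lysosomal arginine for mTORC1, was at 18.8, 22.2, 20.9 and 19.4 CPM in A101D replicates 1-4 and at 15.9, 15.5, 17.7 and 16.5 CPM in 5-8. Its MeWo levels ran from 16.5 to 17.8 CPM in 1-4 and from 15.9 to 18.3 CPM in 5-8. The change of SLC38A9 was -0.30 (adjusted p = 3.02e-05) in A101D and 0.02 in MeWo (95% interval -0.11 to 0.14). SLC36A1 (-0.14) and SLC38A7 (-0.15), a proton-coupled carrier and a glutamine exporter, changed least, and the SLC36A1 call was also lost without the low-count filter (adjusted p = 0.071) and without A101D replicate 1, 2, 5 or 6 (adjusted p = 0.055, 0.199, 0.0563 and 0.0573). In MeWo SLC66A1 and SLC36A4 were lower (log2 changes of -0.18 and -0.22), and SLC38A7 was higher (0.14, adjusted p = 0.04; 0.114 without the low-count filter and 0.0831 to 0.139 without MeWo replicate 1, 2, 3, 6, 7 or 8), the 1 member called in opposite directions in the lines (1.66% of all genes). The SLC36A4 call in MeWo was lost without the low-count filter (adjusted p = 0.0893), with total counts (adjusted p = 0.0668) and without MeWo replicate 1, 2 or 7 (adjusted p = 0.0708, 0.106 and 0.0883).

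Across roles, 8 members were called in the same direction in both lines (28.6% of those tested, against 9.12% of all genes). SLC6A6, SLC7A2, SLC7A6, SLC7A8, SLC1A3, SLC36A4 and SLC66A1 were lower, and SLC7A7 was higher. The MeWo calls of SLC7A6, SLC7A7, SLC7A8, SLC1A3 and SLC36A4 were each lost under some other setting, as given above. Those of SLC6A6, SLC7A2 and SLC66A1 were kept, but the MeWo sets of SLC66A1 overlapped, at 65.4 to 66.8 CPM in 1-4 and 54.2 to 65.7 CPM in 5-8. A further 18 were called in A101D and not in MeWo (64.3% of those tested, against 54.6% of all genes). For 16 of these 18 the interaction was past the threshold as well (57.1% of those tested, against 38.2% of all genes). For SLC1A2 and SLC36A1 it was not, so a difference between the lines is not shown for that pair. With limma-trend the SLC1A2 interaction was called (-1.23, adjusted p = 0.0258), where MeWo had few counts. Of the 12 members higher in A101D, SLC7A7 alone was called higher in MeWo.

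Most members differed between the lines in both sets of numbers. MeWo differed from A101D at 26 of 28 members in replicates 1-4, 10 higher and 16 lower, where 79.1% of all genes were called (35.8% higher and 43.3% lower). In replicates 5-8 it again differed at 26, now 14 higher and 12 lower, against 84.1% of all genes (40.5% higher and 43.5% lower). Averaged over both sets it differed at 24, with 13 higher and 11 lower, against 86.7% of all genes (41.1% and 45.6%). The median log2 difference over the members was -0.19 in 1-4 and 0.09 in 5-8, and -0.09 and -0.03 over all genes. The lines were without overlap at 24 members in 1-4 (72.1% of all genes) and at 25 in 5-8 (79% of all genes). In both sets 20 members differed in the same direction (66.1% of all genes), and 4 differed in opposite directions (5.32%). SLC1A2 and SLC6A14, counted as lower in MeWo in each of these comparisons, passed the filter only through A101D, where they are high. They could thus enter these tests only as genes high in A101D. Both kept their line calls in the fit with no low-count filter, while a stricter filter left SLC6A14 out.

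**Figure D4:**
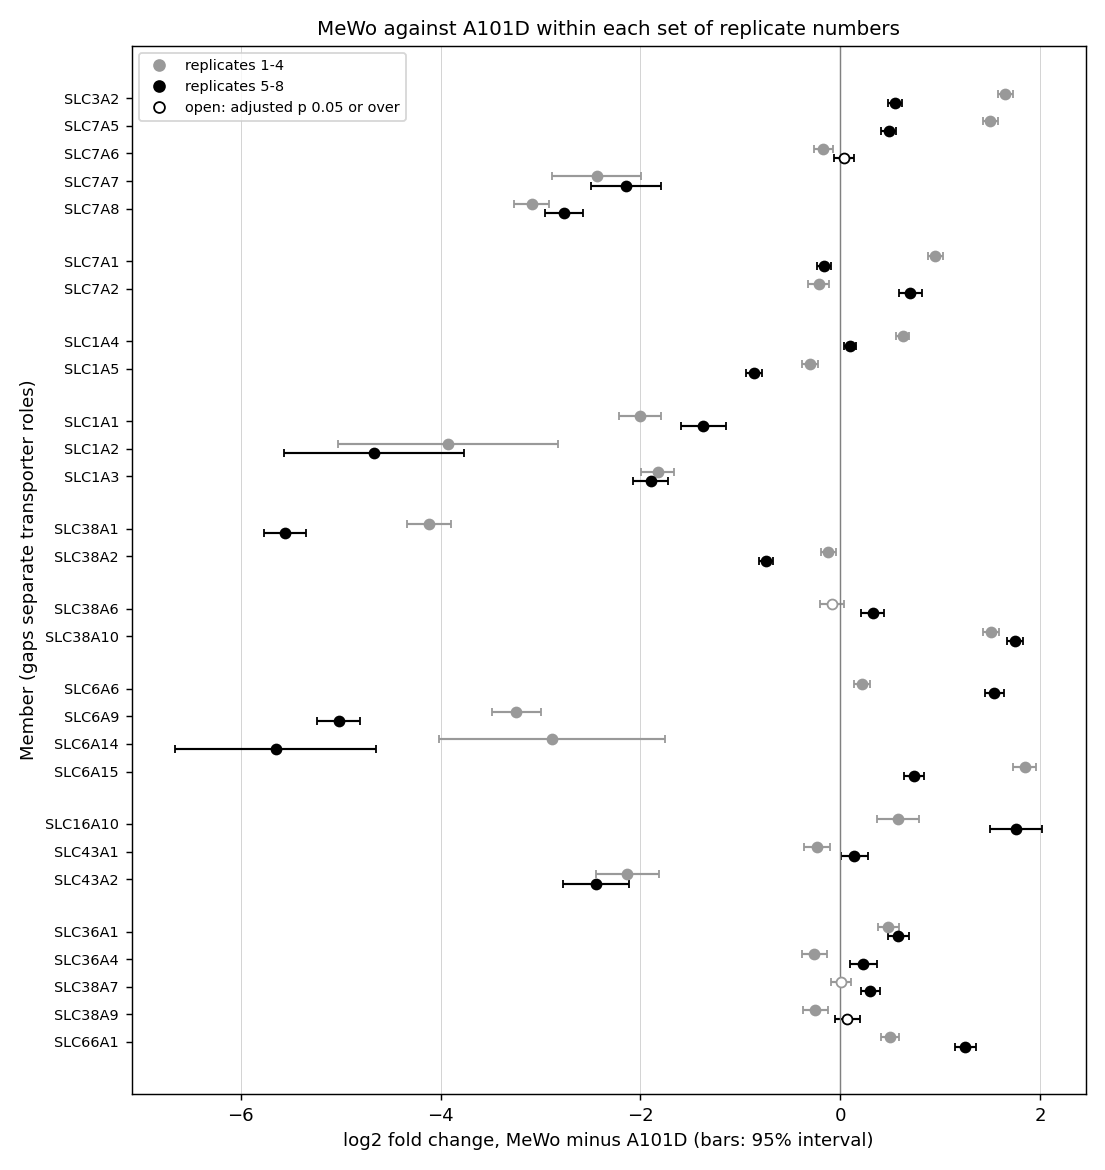
Log2 fold change of MeWo against A101D for the 28 tested members within replicates 1-4 and within 5-8, with 95% intervals (points filled when the adjusted p is under 0.05). SLC7A5 and SLC3A2 are higher in MeWo in both sets, by 1.504 and 1.65 in 1-4 and by 0.49 and 0.55 in 5-8, and SLC7A1 and SLC7A2 change sign between the sets.

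Members over 4-fold apart in both sets were all lower in MeWo. They were SLC38A1, SLC6A9, SLC1A2, SLC6A14, SLC7A7, SLC7A8 and SLC43A2, 7 of the 28 tested. SLC1A2 and SLC6A14 among them passed the filter only through A101D, where they are high, so they could enter the test only as members high in A101D. Of all genes, 12.4% were that far below A101D in both sets. The share of all genes that far above A101D was not counted, so the shared direction of these members is not set against it. SLC38A1 was 17.3-fold lower in MeWo in replicates 1-4 and 47.1-fold lower in 5-8. SLC6A9 was 9.45-fold and 32.5-fold lower. For both genes the larger difference in 5-8 goes with the higher A101D levels there, since the MeWo levels given above stayed between 1.58 and 2.91 CPM. SLC7A8 was 8.52-fold and 6.80-fold lower, SLC7A7 5.43-fold and 4.42-fold lower, and SLC43A2 4.39-fold and 5.44-fold lower, all without overlap of libraries.

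For the barely detected members the counts set the limits. SLC1A2 had 68 counts in A101D replicates 1-4 against 5 in MeWo, a ratio of 13.8 (exact 95% interval 5.64 to 43.9), and 229 against 8 in replicates 5-8, a ratio of 28.02 (13.98 to 65.7). SLC6A14 had 20 against 2 counts in 1-4, a ratio of 10.2 (2.47 to 89.6). In 5-8 it had 103 counts in A101D and none in MeWo, at least 33.6-fold higher in A101D when MeWo is set at 3 counts over its 4 libraries. These intervals and this floor cover counting error only.

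In the other direction, SLC38A10 was 2.85-fold and 3.36-fold higher in MeWo in the respective sets, at 329 to 373 CPM against 100.6 to 126 CPM. The LAT chains were also higher in MeWo, SLC3A2 3.14-fold in 1-4 and 1.46-fold in 5-8, and SLC7A5 2.84-fold and 1.40-fold. SLC6A15 was 3.595-fold and 1.67-fold higher. These 3 members were therefore closer between the lines in replicates 5-8. SLC16A10 and SLC6A6 were further apart there, 3.39-fold and 2.91-fold higher in MeWo in 5-8 against 1.49-fold and 1.16-fold in 1-4.

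SLC7A1, SLC7A2, SLC36A4 and SLC43A1 were the members whose line difference was called in opposite directions. SLC7A1 was higher in MeWo in replicates 1-4 (log2 difference 0.95) and lower in 5-8 (-0.16), and SLC7A2 was lower in 1-4 (-0.22) and higher in 5-8 (0.70). SLC43A1 rested on a weak call in 5-8 (0.14, adjusted p = 0.0436), which was lost with other scalings (adjusted p = 0.149 and 0.254), without the low-count filter (adjusted p = 0.11) and without A101D replicate 7 or 8 or MeWo replicate 5, 7 or 8 (adjusted p = 0.0604 to 0.21). A fit on the line alone, with no sets of numbers, gave no call for SLC7A1 (adjusted p = 0.0797) or SLC7A2 (adjusted p = 0.259). SLC38A2 was slightly lower in MeWo in 1-4 (-0.12, adjusted p = 0.00249), and without A101D replicate 2 that call was lost (adjusted p = 0.0669), while in 5-8 the difference was -0.75 (adjusted p = 1.15e-23). SLC1A4 was higher in MeWo in 5-8 by 0.10, a call that was lost with median-of-ratios factors (adjusted p = 0.0902) and total counts (adjusted p = 0.121).

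Genes around the transporters gave a context for the 5-8 against 1-4 changes. Their lists were also chosen with earlier results of these data known, so the counts only describe. Of 24 genes of the amino acid response, 21 were higher and 1 lower in A101D replicates 5-8 (median log2 change 1.61), where 29.6% of all genes were higher. In MeWo 14 were higher and 1 lower (median 0.36), where 4.59% of all genes were higher. CHAC1, a glutathione-degrading enzyme induced by ATF4, had a mean of 19.9 CPM in A101D replicates 1-4 and 215 CPM in 5-8, and of 14.9 and 38.9 CPM in the MeWo sets. ATF4 RNA was higher by 1.27 in A101D and by 0.71 in MeWo, and the TRIB3 pseudokinase by 2.36 and 0.63. By the interaction test the change was more negative in MeWo than in A101D for 21 of the 24, against 20.8% of all genes. This includes smaller rises, since 14 of the 24 were higher in MeWo and 1 lower. The transporters SLC3A2, SLC7A5, SLC7A1, SLC38A2 and SLC1A5, like 9 of the 24 response genes, had no call in MeWo. SLC7A1 was called there with total counts. The 95% intervals of these transporters in MeWo stayed within -0.15 and 0.11.

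SLC7A11, the cystine and glutamate exchanger that also pairs with SLC3A2, belongs to a list of 38 further transporters, 20 of them tested. Its mean was 64.8 CPM in A101D replicates 1-4 and 364 CPM in 5-8, a log2 change of 2.49. In MeWo the means were 732 and 673 CPM, a log2 change of -0.12 that was called lower. Of those 20 transporters 7 were higher and 7 lower in A101D, and 2 were higher and 4 lower in MeWo. Among 13 mitochondrial amino acid carriers 3 were higher and 9 lower in A101D, including the serine carrier SFXN1 (-1.13), and 3 were lower in MeWo. Among 15 genes of lysosomal amino acid sensing 4 were higher and 9 lower in A101D, with RRAGC at 0.82 and LAMTOR1 at -0.79, and 1 was higher and 2 were lower in MeWo. Over all genes 29.6% were higher and 35.8% lower in A101D, and 4.59% higher and 8.51% lower in MeWo, so that the 7 of 20 transporters in each direction in A101D lay near the share of all genes.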

How the data were processed

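Total RNA libraries were made with a stranded kit, per the labels' protocols. The submitters' processing notes name Trimmomatic 0.39-1 (a read trimmer), STAR 2.7.1a (an aligner), featureCounts 2.0.0 (a read counter) and the build GRCh38. Counts were taken over exons, per the file headers. Annotation release and strand setting: not given in the sources used here. The deposited values are raw counts, joined with the gene identifier in each cell, and both were separated. The count tests were planned as alternatives only if the deposited columns passed as counts. In that joined format they did not pass, so these tests were not run, although the separated values are counts.

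Library sizes were scaled by the TMM method (trimmed means of M-values, trims of 30% and 5%). The 21569 genes tested had a total of at least 15 counts and reached 0.298 CPM, or 10 counts at the median depth, in 4 or more libraries. A model with 4 group means (line by replicate numbers 1-4 or 5-8) was fitted with limma 3.58.1 (voom weights, robust moderation, two-sided tests) in R 4.3.3. The Benjamini-Hochberg adjustment covered all 21569 genes, with a threshold of 0.05. The limma step was tested on simulated counts. Alternatives were other scalings, filters on low counts, limma-trend, smaller fits, a replicate block and each library left out. Exon lengths and positions are those of GENCODE v29 (GRCh38). Strandless counting could mix overlapping genes.

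Members given in full had a called change over 2-fold and at least 10 CPM in a group, a called difference of changes over 2-fold, or lines over 4-fold apart in both sets, or were SLC3A2, SLC7A5, SLC1A5, SLC38A2, SLC7A1, SLC38A9 or SLC43A2. The split by number, the members and the lists were chosen with earlier results of these data known. Outliers were sought in each group of 4 with Dixon's critical value of 0.829.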

Additional observations from a re-analysis of the deposited data

Results flagged for a closer look

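In 5 of 112 groups of 4 libraries, 1 library lay far from the other 3 in the level of a member, where chance gives about 1 in 20, or 5.6. All 5 were in MeWo replicates 1-4. In replicate 2, SLC7A6 was at 42.1 CPM against 38.9 to 39.4, SLC38A1 at 2.91 against 2.35 to 2.42, and SLC6A14 at 0.0647 against 0. In replicate 4, SLC16A10 was at 6.66 CPM against 8.29 to 8.49, and SLC38A7 at 31.4 against 30.6 to 30.7.

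The 5-8 against 1-4 change differed between the lines for 23 members by the interaction test in limma, given as the log2 change in MeWo minus that in A101D. The difference was negative for SLC6A14 (-2.76, for a gene that passed the filter only through A101D replicates 5-8), SLC6A9 (-1.78), SLC38A1 (-1.44), SLC7A1 (-1.11), SLC6A15 (-1.11), SLC3A2 (-1.10), SLC7A5 (-1.02), SLC38A2 (-0.63), SLC1A5 (-0.56) and SLC1A4 (-0.53). It was positive for SLC6A6 (1.32), SLC16A10 (1.18), SLC7A2 (0.92), SLC66A1 (0.75), SLC1A1 (0.63), SLC36A4 (0.49), SLC38A6 (0.40), SLC43A1 (0.37), SLC7A8 (0.33), SLC38A9 (0.32), SLC38A7 (0.29), SLC38A10 (0.24) and SLC7A6 (0.21).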

How the results depend on the processing

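Of 109 counts of members past the threshold under another setting, 107 stayed within 1.5 times the reported one. In the MeWo comparison of 5-8 against 1-4, 9 members became 4 without the low-count filter, which leaves more genes to adjust over, and 5 to 9 with 1 library left out, 5 without MeWo replicate 2. Leaving out 1 library gave 25 to 27 members for A101D, 21 to 23 for the interaction, 25 to 26 and 24 to 26 for the lines in 1-4 and 5-8, and 23 to 25 for the lines on average. Under settings that keep all libraries, the called values of members given in full were computed 619 times, of which 612 kept their direction and call, 7 lost the call and none changed sign. Calls lost when 1 library was left out are named beside each member or here. SLC6A14 failed the filter without A101D replicate 5, 6, 7 or 8, so its calls in A101D, for the interaction and between the lines in 5-8 and on average were lost there. SLC7A8 lost its interaction with median-of-ratios factors (0.25, adjusted p = 0.106), total counts (0.22, 0.13) and no filter (0.33, 0.0812), and without A101D replicate 2 or 5 or MeWo replicate 3, 5 or 7 (adjusted p = 0.053 to 0.0932), and the cause was not tested. Replicate numbers are shared by the lines, but same-numbered libraries deviated together with correlations of only -0.0201 to 0.077, and 6 of 16 libraries correlated best with their own number. With the replicate number as a block, the counts were 23 for the interaction, 26 for the lines in 1-4, 26 in 5-8 and 24 on average, as without it. The quasi-likelihood and Wald count tests were not run. Depth limits SLC1A2, SLC6A14 and the 3 members not tested.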
